A study of Homo sapiens with 6 samples.

Results

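The regions described here are 749 stretches between protein-coding genes with a peak in at least 3 of 4 MYT1L libraries. They lie near a protein-coding gene but not at an end of any gene. They were chosen by merging the peaks of the 4 MYT1L libraries on chromosomes 1 to 22, X and Y wherever peaks shared 1 bp or more. A merged region was kept when at least 3 of the 4 libraries had a peak in it and no IgG peak touched it. It was counted here when it lay outside every protein-coding gene body, over 1000 bp from an end of any gene and at most 50 kb from the nearest protein-coding gene end. The 749 regions made up 6.75% of the 11091 reproducible regions without an IgG peak and came from 49028 merged regions in all. The peak calls themselves chose the regions, so their number, their presence in each library and their fold values are descriptions.

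All 6 libraries were made at day 30 from unmodified cells (labelled WT) of H1, a human embryonic stem cell line. The design text calls them cortical interneurons derived from the stem cells, while the labelled cell type is that of the starting cells, and peak lists hold no expression with which the cell type could be checked. CUT&RUN, in which an antibody tethers a nuclease to chromatin and the cut DNA is sequenced, was done with an antibody to MYT1L in 4 libraries and with IgG, the control for untargeted cutting, in 2. A single cell line was used, and the labels do not say whether replicates were separate cultures, so the spread between libraries may be technical. On the chromosomes used, the MYT1L lists held between 12310 peaks (replicate 2) and 30086 (replicate 4), and the IgG lists 976 and 998.

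MYT1L is a transcription factor of postmitotic neurons with clustered CCHC zinc fingers, and the fingers of its family recognise the short core AAGTT. It is known mainly as a repressor that recruits SIN3 and histone deacetylases and that keeps non-neuronal programmes and Notch effector genes silent. Intergenic sites within reach of a gene include enhancers and silencers, and also repeats and stretches that share sequence with other loci.

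The sequences of the regions themselves were not used here, since no genome of this build was at hand. For comparison with the gene next door, 3 promoters are shown whose gene is nearest to a region named below and whose promoter also carries a reproducible region. Each line gives the 250 bases before the gene's start, 5′ to 3′ on the gene's strand, from RefSeq (GRCh38.p14). AAGTT or its reverse complement AACTT is in capitals. The windows are chr6:125749382-125749631 (plus strand) for HEY2, chr7:155297628-155297877 (plus strand) for INSIG1 and chr13:113864077-113864326 (minus strand) for GAS6.
HEY2: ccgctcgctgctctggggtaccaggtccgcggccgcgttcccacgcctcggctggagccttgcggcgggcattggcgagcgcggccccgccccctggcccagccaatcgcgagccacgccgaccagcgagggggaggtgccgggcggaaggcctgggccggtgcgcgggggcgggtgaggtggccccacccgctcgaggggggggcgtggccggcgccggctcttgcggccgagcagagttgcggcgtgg
INSIG1: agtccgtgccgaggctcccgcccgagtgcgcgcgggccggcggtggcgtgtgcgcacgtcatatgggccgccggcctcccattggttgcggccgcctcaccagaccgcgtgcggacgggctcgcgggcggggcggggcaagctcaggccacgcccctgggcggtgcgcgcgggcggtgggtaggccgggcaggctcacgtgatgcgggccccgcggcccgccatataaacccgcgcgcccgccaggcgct
GAS6: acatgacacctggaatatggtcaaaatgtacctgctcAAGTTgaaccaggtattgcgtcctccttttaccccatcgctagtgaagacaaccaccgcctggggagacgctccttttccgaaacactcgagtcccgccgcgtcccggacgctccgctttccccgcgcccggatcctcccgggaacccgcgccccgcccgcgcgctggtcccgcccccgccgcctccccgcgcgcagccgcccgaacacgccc
GAS6 has 1 match, and HEY2 and INSIG1 have none. The GC content is 66.8% for GAS6, 79.2% for HEY2 and 78.4% for INSIG1. The promoters of DGCR6 and ZNF565 qualify too but are not printed, and neither holds a match. The listed ZNF565 window, chr19:36215085-36215334, lies over 1000 bp from either end of that gene as used for distances here. Among all 15843 protein-coding promoters of this length in the table, 26.4% held the 5-letter core on either strand. The share was 26.1% over the 522 genes nearest to a region whose promoter is listed (of 661). Of the promoters that a reproducible region overlaps, as it does the 3 shown, 18.5% held the core, and 20.2% of the 198 that also belong to a nearest gene. The longer form AAAGTTT, which contains the core, was in 3.24% of all promoters and 2.87% of those of the nearest genes. These shares describe letters in a window and say nothing of binding.

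Of the 749 regions, 245 had a peak in all 4 libraries and 504 in 3. That is 32.7%, against 45.4% of all reproducible regions without an IgG peak, 51.2% of those at protein-coding gene ends, 43.9% of those at noncoding gene ends, 38.2% of those inside protein-coding genes and 30.7% of the intergenic ones farther than 50 kb from a protein-coding gene. Of the 504, 238 lacked replicate 2, the library with the fewest peaks. Another 190 lacked replicate 3, 43 lacked replicate 4 and 33 lacked replicate 1. Replicate 3 was thus missing in 37.7% of the 3-library regions here. It was missing in 18.5% of the far intergenic ones and 21.3% of those at protein-coding gene ends. At noncoding gene ends it was 24.6%, and inside protein-coding genes 29.5%. Replicate 2 was missing in 47.2% of the 3-library regions here and in 56.7% to 70.1% in those other classes. The regions covered 537 kb in all and had a median width of 655 bp, from 227 to 2493 bp. In 93.2% of them each library contributed a single peak. The summits of the libraries lay a median of 225 bp apart at the widest, and within 100 bp of each other in 142 regions. Without replicate 2 the same rule with 2 of the other 3 libraries gave 1576 regions, and without replicate 3 it gave 1454.

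The number chosen can be read against all merged regions of the same place. Of 6700 intergenic regions near genes without an IgG peak, 11.2% reached 3 libraries. The share was 11.3% of the far intergenic regions, 12.9% of those inside protein-coding genes, 19.5% of those at noncoding gene ends and 23.3% of all 47652 regions without an IgG peak. At protein-coding gene ends 6725 of 13453 did. A further 74 near-gene intergenic regions reached 3 libraries but touched an IgG peak, 8.99% of 823, and were not counted.

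The fold is the authors' deposited value. In MACS2 it is the ratio of the fragments piled up at the summit plus 1 to the local background plus 1, so it lies below the plain ratio where the background is low. Under that formula and the one for p, 100% of these peaks had a whole-number pileup that matched the deposited fold and −log10 p within 0.0002. A pileup offset by 0.5 fragments matched at most 1.79% in any library. The median summit held 15, 9, 13 and 14 overlapping fragments in replicates 1 to 4, over a median local background of 1.98, 0.795, 1.53 and 1.53. The lowest summit held 5 fragments and the highest 436. A typical fold thus rests on few fragments, and total read numbers are unknown.

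In every library the median fold of these regions was below that of the other location classes compared. The median fold was 5.36, 5.59, 5.02 and 5.51 in replicates 1 to 4. In far intergenic regions it was 5.56, 5.83, 5.47 and 5.63, and inside protein-coding genes 5.49, 5.70, 5.36 and 6.25. At gene ends it was 5.66, 5.85, 5.75 and 8.54, so replicate 4 stood out there and not between genes. Over the 4 libraries the log2 difference was −0.07 ± 0.04 (SD, n = 4) from far intergenic regions, −0.08 ± 0.07 from regions inside genes and −0.24 ± 0.27 from gene ends. Each difference was negative in 4 of 4 libraries (exact sign-flip permutation test over libraries, two-sided, p = 0.125 each). That is the smallest p that 4 libraries allow. After Benjamini-Hochberg adjustment over the 6 comparisons of fold and width it is 0.125 too, so no difference could have passed 0.05. The folds also come from the peak calls that chose the regions, so these p-values decide nothing and the differences are descriptions. The gene-end difference ranged from −0.06 in replicate 2 to −0.63 in replicate 4, and it was −0.16 without replicate 4. The difference from far regions was −0.03 without replicate 3, −0.13 without the first IgG library and −0.21 with IgG-touched regions kept. That from regions inside genes was −0.05 without replicate 3.

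Median width ordered the classes differently. The median peak width was 457, 321, 348 and 430.5 bp in replicates 1 to 4 near genes, against 377.5, 285, 316 and 320.5 bp far from them and 513, 336, 411 and 809.5 bp at gene ends. The log2 difference in width was 0.25 ± 0.13 (SD, n = 4), or 1.19-fold, from far regions, −0.35 ± 0.38 from gene ends and −0.16 ± 0.15 from regions inside genes. Without replicate 4 the difference from regions inside genes was −0.08, and without replicate 2 that from gene ends was −0.52. In the full set each direction held in 4 of 4 libraries (exact sign-flip permutation test, two-sided, p = 0.125, adjusted p = 0.125, the smallest possible).

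**Figure D1:**
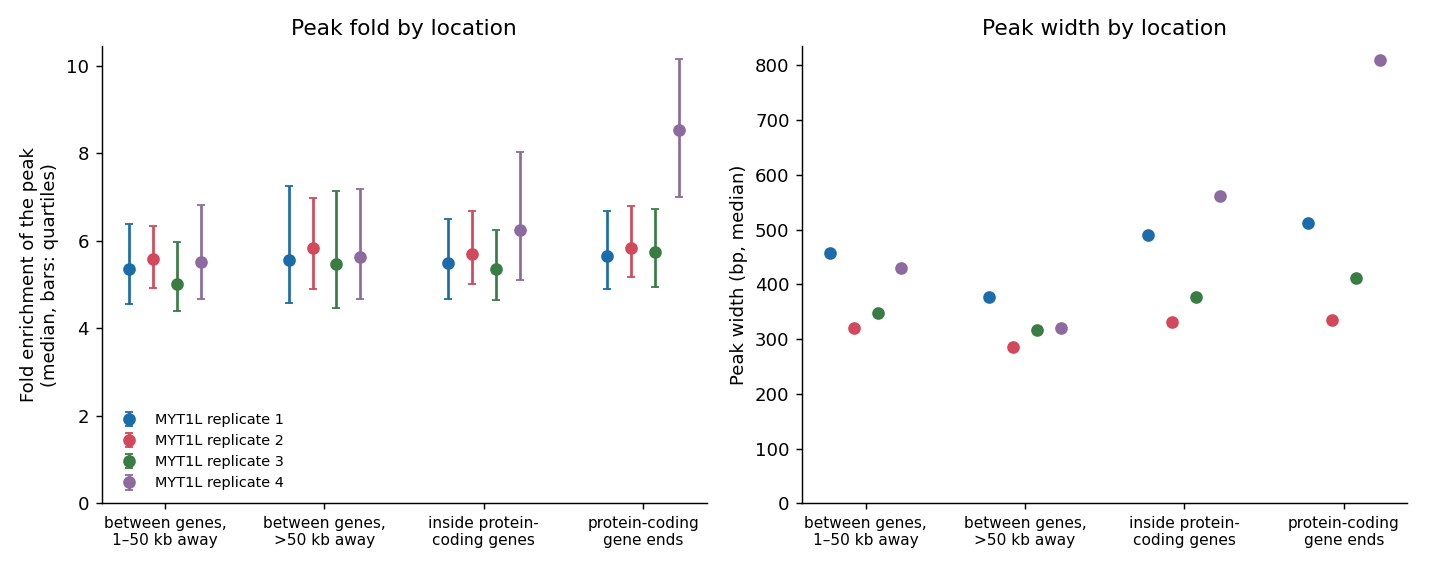
Median fold enrichment with quartile bars (left) and median peak width in bp (right) of the peaks in reproducible regions without an IgG peak, by location, with 1 point per MYT1L library. Fold near genes lies between 5.02 and 5.59 in the 4 libraries, while replicate 4 reaches 8.54 and 809.5 bp at gene ends.

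Over regions shared by a pair of libraries, Spearman's rho of the fold was between 0.393 and 0.559 for the 6 pairs (321 to 673 regions a pair). It is a description across regions of the same genome, which share local sequence and background. Without the 30 regions of high background described further on, it was between 0.291 and 0.489.

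Among regions with a peak in all 4 libraries, the 12 of highest mean fold ranged from 10.6 to 22.5. The first lay at chr7:158595146-158595406, 7.32 kb from PTPRN2, a phosphatase-like receptor of dense-core vesicles. Its fold was 27.9, 23.3, 14.1 and 24.9 in replicates 1 to 4 (mean 22.5 ± 5.90, SD, n = 4), over 178, 58, 52 and 129 fragments. The second, at chr1:236097108-236097406 and 32.0 kb upstream of NID1, a basement membrane glycoprotein, had 20.004, 16.7, 17.6 and 18.1. The third, at chr22:18890862-18891186, lay 15.0 kb upstream of DGCR6, a gene of the DiGeorge critical region, inside the long noncoding gene FAM230F, and had 17.4, 16.7, 17.1 and 20.3. These 3 regions stood above all others in the mean, and in each the summits of the 4 libraries fell within 17 bp of one another.

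Replicate 3 gave the lowest value in 7 of the 12. The region 8.12 kb from FLT4, a VEGF receptor of lymphatic vessels (chr5:180658416-180658791), had a fold of 17.8, 12.5, 10.1 and 17.5. The region 15.4 kb upstream of PARD6G, a cell polarity protein (chr18:80262923-80263259), had 19.3, 9.19, 4.88 and 15.5, the widest spread of the 12 (12.2 ± 6.42, SD, n = 4). The region 22.2 kb upstream of TRIM2, a ubiquitin ligase found in neurons (chr4:153129410-153130004), had 13.2, 11.6, 7.58 and 14.6. The region 11.9 kb upstream of GAS6, a ligand of TAM receptor kinases (chr13:113875953-113876672), spread least of the 12, with 11.5, 10.5, 9.95 and 10.5.

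Another 4 of the 12 spanned several kinds of neighbour. A region 5.84 kb upstream of MMP8, neutrophil collagenase (chr11:102730795-102731350), had a mean fold of 13.5 ± 1.50 (SD, n = 4). A region 34.8 kb downstream of UNCX, a homeobox gene (chr7:1272086-1273001), had 10.5, 12.5, 11.01 and 8.75 in replicates 1 to 4, a mean of 10.7 ± 1.53. The remaining ones lay next to predicted genes, 3.72 kb from LOC124903407 (chr14:101038197-101038686, fold 14.7, 11.01, 7.07 and 15.2) and 15.6 kb from LOC105376722 (chr15:84343928-84344884, fold 9.78, 9.14, 11.6 and 16.2). The first of these was 1004 bp from MIR376C, a microRNA gene, just outside the distance that would have removed it. At the median of all 749, the regions next to ENPP7, TLE1 and TTC17 had mean folds of 5.47, 5.48 and 5.48.

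**Figure D2:**
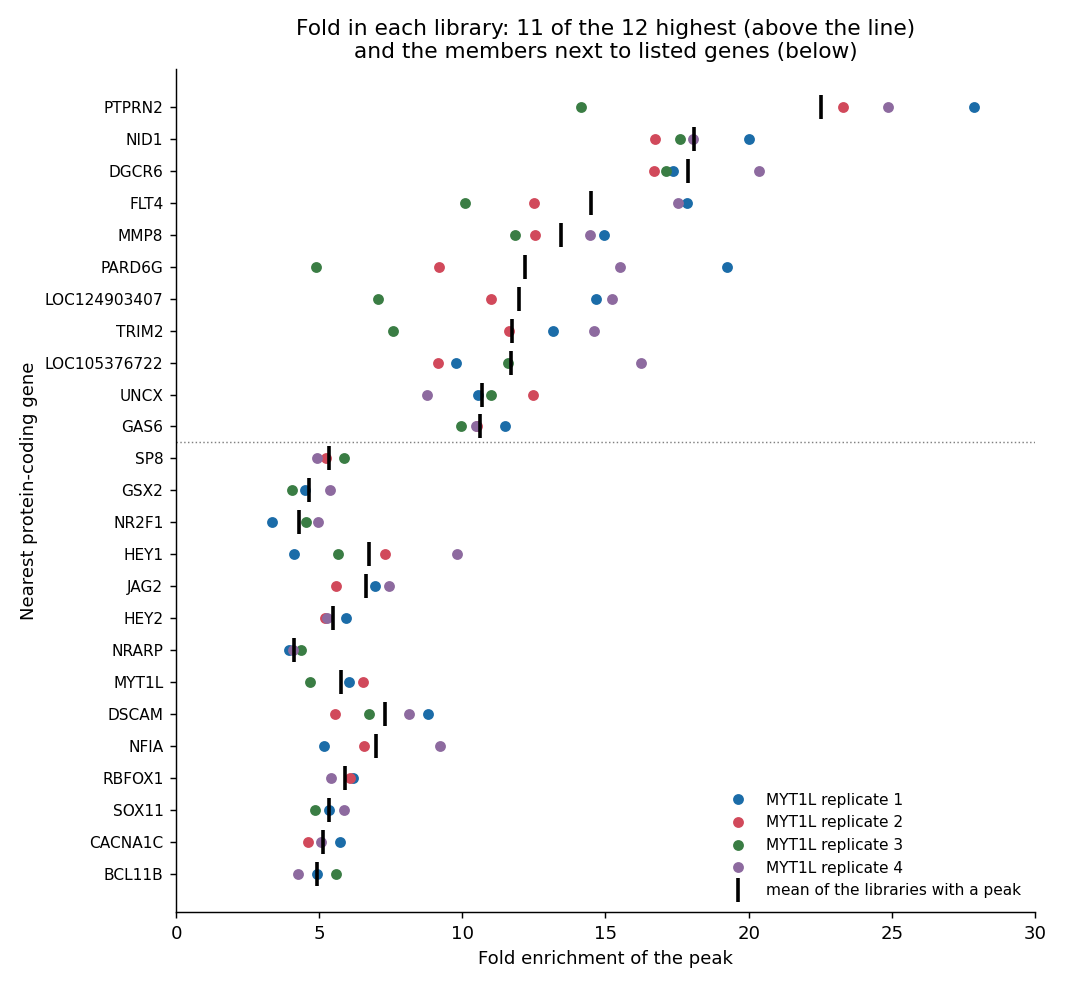
Fold enrichment (x axis) of 11 of the 12 regions with the highest mean fold (above the dotted line) and of the 14 next to genes of the ventral forebrain, Notch, MYT1 and neuronal lists (below it), with 1 point per MYT1L library with a peak and a bar for their mean. The upper group spans means of 10.6 to 22.5 and the lower group 4.13 to 7.31, and replicate 3 is often the lowest point in the upper group.

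Few regions lay next to genes of the neuronal and developmental lists. The share of genes with one was still above that of all genes for the Notch, ventral forebrain, neuronal and MYT1 lists. Of 20037 protein-coding genes 661, or 3.30%, were the nearest gene of at least 1 region. For the Notch pathway it was 4 of 38 genes (10.5%), for ventral forebrain and interneuron genes 3 of 36 (8.33%), for other neuronal and autism-associated genes 6 of 77 (7.79%). Of liver and muscle genes it was 1 of 36 (2.78%), of pluripotency genes 0 of 23 (0.00%) and of the MYT1 family 1 of 3 (33.3%). Genes with long flanks can hold more regions. Per Mb of intergenic sequence that could have held one, there were 4.24 regions next to Notch genes, 1.46 next to ventral forebrain genes, 1.40 next to the neuronal list and 1.40 next to all genes. Liver and muscle genes had 1.11 per Mb, pluripotency genes 0 and the MYT1 family 5.07, the last from 1 region. The Notch value rests on 4 regions in 0.944 Mb, and no list was tested. The same 0.944 Mb also held 16 regions seen in 1 library, while over all genes such regions numbered 9.16 per Mb. The liver and muscle gene was TNNT3, a troponin of fast skeletal muscle, with a region 1144 bp away that had a fold of 11.4, 9.54 and 6.85 in replicates 1, 2 and 4. Its mean, 9.25, was above that of each of the 14 regions next to the Notch, ventral forebrain, neuronal and MYT1 lists.

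Among Notch genes the neighbours were a ligand, an inhibitor and a pair of effectors. HEY1, a bHLH repressor switched on by Notch, had a region 15.9 kb away in all 4 libraries (chr8:79783647-79784341) with a fold of 4.12, 7.31, 5.66 and 9.83. HEY2, its paralogue, had one 9.29 kb downstream (chr6:125770556-125771171) with 5.95, 5.22 and 5.28 in replicates 1, 2 and 4. JAG2, a Notch ligand, had one 28.1 kb downstream (chr14:105112301-105112848) with 6.94, 5.58 and 7.42 in the same libraries. For NRARP, a feedback inhibitor of Notch signalling, the region 3.66 kb downstream (chr9:137295594-137295968) had 3.93, 4.38 and 4.08 in replicates 1, 3 and 4. The 3-library regions of this list thus lacked replicate 3 next to HEY2 and JAG2 and replicate 2 next to NRARP. Both HEY1 and HEY2 also had a reproducible region at an end of the gene. The one over the HEY2 promoter printed above had a fold of 5.24, 5.12, 11.02 and 6.77.

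Next to ventral forebrain genes the mean folds were 4.28 to 5.34, below the median of 5.48 over all 749. SP8, a zinc-finger factor of lateral and caudal ganglionic eminence lineages, had a region 10.9 kb upstream (chr7:20797743-20798676) with 5.25, 5.85 and 4.93 in replicates 2, 3 and 4. GSX2, a homeobox factor of ventral progenitors, had one 46.8 kb downstream (chr4:54149331-54149684) with 4.52, 4.04 and 5.37 in replicates 1, 3 and 4. NR2F1, a nuclear receptor of caudal interneuron precursors, had one 2.61 kb upstream (chr5:93579484-93580609) with 3.35, 4.54 and 4.96 in those libraries. An IgG peak lay 3635 bp from the NR2F1 region. No region of these 3 genes was in all 4 libraries, and none of the 3 genes had a reproducible region at an end.

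The neuronal list held adhesion, channel and transcription factor genes. DSCAM, an adhesion molecule of neurites, was the single one with peaks in all 4 libraries, 35.9 kb downstream (chr21:39974578-39975088), with 8.81, 5.56, 6.74 and 8.13. NFIA, a factor of gliogenesis, had a region 26.6 kb upstream (chr1:61049990-61050585) with 5.17, 6.55 and 9.22 in replicates 1, 2 and 4. The regions next to RBFOX1, a splicing regulator, SOX11, a factor of immature neurons, CACNA1C, an L-type calcium channel, and BCL11B, a zinc-finger factor, had mean folds of 5.90, 5.35, 5.13 and 4.92 (n = 3 each). MYT1L itself had a region 8.36 kb downstream of the gene (chr2:1779594-1780751), with 6.06, 6.54 and 4.69 in replicates 1, 2 and 3 and no peak in replicate 4.

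The density of regions was lower at 20 to 50 kb than closer to genes, and lower still beyond 50 kb. The sequence that could have held a region, outside protein-coding genes and over 1000 bp from any gene end, amounted to 533 Mb within 50 kb. Assembly gaps and sequence in which reads cannot be placed were not taken off, here or in any other amount or share of eligible sequence, and their part in the densities was not tested. There were 1.55 regions per Mb at 1 to 2 kb from a protein-coding gene end, 1.46 at 2 to 5 kb, 1.54 at 5 to 10 kb, 1.55 at 10 to 20 kb and 1.24 at 20 to 50 kb. Beyond 50 kb the reproducible regions numbered 0.829 per Mb. Regions seen in 1 library numbered 9.16 per Mb within 50 kb and 5.34 beyond, with their lowest near-gene density, 7.95, at 2 to 5 kb and 8.90 at 20 to 50 kb. The number of single-library regions for each reproducible one was 6.52 within and 6.45 beyond, so the ratio was alike on both sides of the limit. Just inside the outer limit, the regions next to TPTE, FRAS1 and MINDY4B lay 49694, 49698 and 49717 bp away with mean folds of 4.92, 5.67 and 6.11. Just outside it, those next to IRF8, FAM246A and CWH43 lay 50004, 50175 and 50227 bp away with 7.34, 5.70 and 2.31. At the inner limit the closest kept regions were 1004, 1010 and 1013 bp from a gene, and the last removed were 997, 998 and 1000 bp from one.

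**Figure D3:**
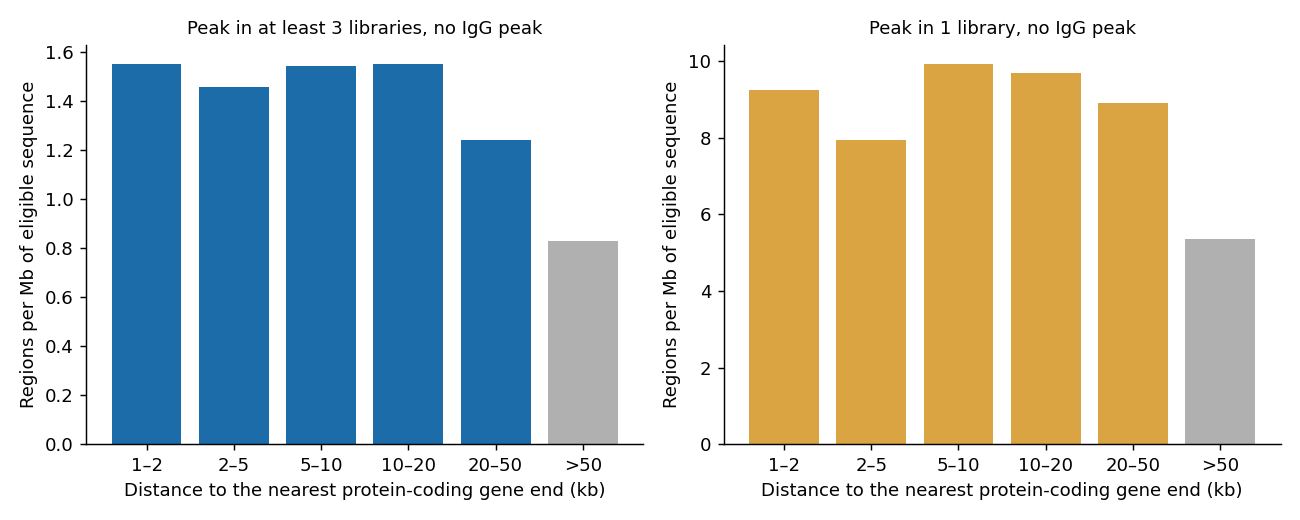
Regions per Mb of eligible intergenic sequence (y axes) by distance to the nearest protein-coding gene end in kb (x axes), for regions with a peak in at least 3 MYT1L libraries (left) and in 1 library (right), without IgG peaks. Values near genes lie between 1.24 and 1.55 per Mb on the left and between 7.95 and 9.93 on the right, and the grey bars beyond 50 kb are lower at 0.829 and 5.34.

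Of the 593 regions whose nearest gene has a strand in the promoter table, 301 lay upstream of it, 50.8% (95% Wilson interval 46.7% to 54.8%), and 54.1% of the eligible sequence is upstream. At 1 to 2 kb it was 11 of 33, 33.3% (19.8% to 50.4%), where 49.4% of the sequence is upstream. At 2 to 5 kb it was 31 of 72, 43.1% (32.3% to 54.6%), where 51.7% is. At 5 to 10 kb it was 57.3%, where 53.3% is. Of the 749 regions, 159 lay inside the body of a noncoding gene, 126 of them a long noncoding RNA gene. That is 21.2%, beside 21.0% of the eligible sequence and 21.7% of the single-library regions. The nearest gene had a reproducible region at one of its own ends for 300 regions, 40.1% (36.6% to 43.6%). Counted once each, the 661 nearest genes had one in 41.5% of cases. Genes with such a region flank 39.4% of the eligible sequence and 36.8% of the single-library regions, and 38.9% of all protein-coding genes have one. Wilson intervals, here and below, cover counting error alone and treat regions as independent, although some lie in groups. The 40.1% moved with the peak threshold, which also decides which genes have a region: it was 53.6% when 2 libraries sufficed and 21.9% when only peaks at or above 5 in −log10 q counted.

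Zinc-finger genes stood next to these regions more often than their share of the sequence. The group, chosen after the values were seen, holds the 566 protein-coding genes whose symbol begins with ZNF, ZFP, ZSCAN or ZKSCAN and a number. Most of them encode C2H2 zinc-finger factors and many lie in tandem arrays on chromosome 19. They were the nearest gene of 78 regions, 10.4% (8.42% to 12.8%), and flank 2.50% of the eligible sequence. The interval is too narrow, since 22 of the 78 lie in groups of 12 and 10 neighbouring regions on chromosome 19. Among near-gene intergenic regions it was 3.01% for those seen in 1 library, 4.69% for 2, 8.33% for 3 and 14.7% for 4. Without regions of high background it was 2.77%, 4.43%, 7.27% and 8.93%. Without replicate 2, and with 2 of the other libraries required, it was 7.17%.

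The 78 regions lay next to 50 genes, and 45 of them were on chromosome 19. That chromosome had 64 of the 749 regions, or 4.20 per Mb of eligible sequence, against 1.40 over all chromosomes, 2.74 on chromosome 22 and 0.457 on X. Without the regions of high background it had 42, or 2.75 per Mb, while chromosome 22 kept its 2.74. Single-library regions numbered 13.7 per Mb on chromosome 19, 14.6 on chromosome 22 and 3.81 on X, against 9.16 over all. The strongest of the zinc-finger neighbours was 17.2 kb from ZNF780A (chr19:40108152-40109499), with a fold of 9.83, 8.87 and 11.1 in replicates 1, 2 and 4. A second region 26.4 kb from the same gene had 7.13, 6.83 and 6.93. Off chromosome 19, a region 15982 bp from ZNF716 (chr7:57489541-57490391) had 7.96, 7.58, 7.72 and 7.32 in replicates 1 to 4, with an IgG peak 1274 bp away. The 56 zinc-finger neighbours of low background had a median fold of 5.63, beside 5.51 for the other regions of low background.

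**Figure D4:**
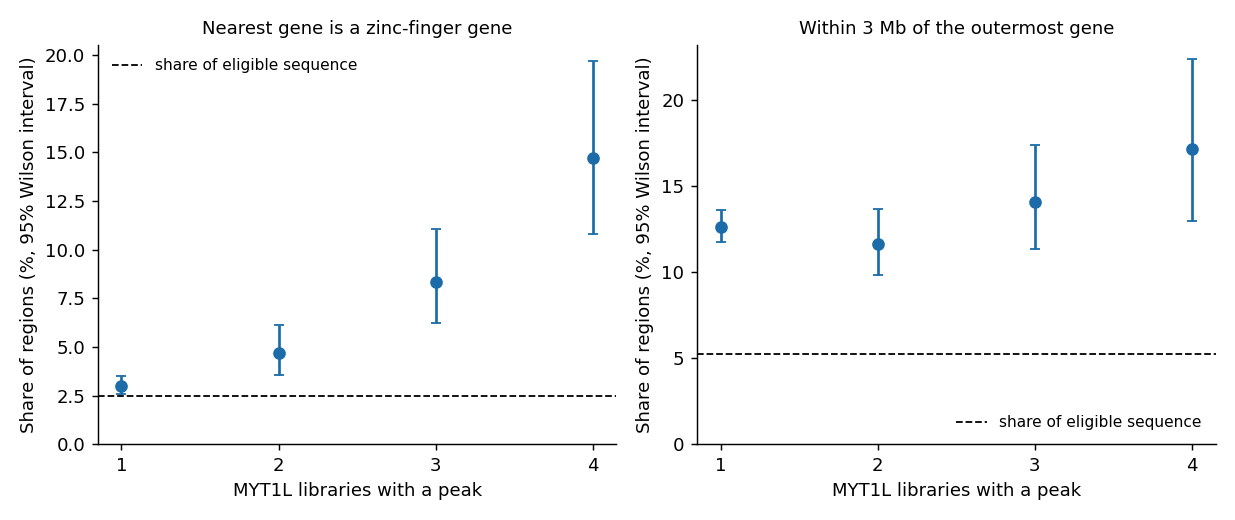
Share of near-gene intergenic regions without an IgG peak, in %, whose nearest gene is a zinc-finger gene (left) or that lie within 3 Mb of the outermost gene of the chromosome (right), by the number of MYT1L libraries with a peak; bars are 95% Wilson intervals and the dashed line is the share of eligible sequence. The left share goes from 3.01% in 1 library to 14.7% in 4, and the right share stays between 11.6% and 17.1%, above the line at 5.27% in every class. The intervals treat regions as independent, although some lie in groups.

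A group of 30 regions combined a high local background with a low fold. Their background averaged 10 or more fragments, a limit chosen after the values were seen, and their median fold was 2.70, against 5.52 for the other 719. Of the 30, 21 had a peak in all 4 libraries (70.0% against 31.2%), and 14 lay within 5 kb of an IgG peak, against 5 of the 719 (46.7% against 0.695%). On chromosome 19 there were 22 of them, in 2 groups. Between ZNF565 and ZFP14, 12 regions lay within 33323 bp (chr19:36270761-36304083), 10 of them in all 4 libraries. Their mean folds were 2.17 to 3.19, and their summits held 76 to 105 fragments in replicate 1, 41 to 55 in replicate 2, 56 to 72 in replicate 3 and 55 to 76 in replicate 4. Between ZNF383 and ZNF875, 10 regions lay within 31194 bp (chr19:37272322-37303515) with mean folds of 2.30 to 3.81. In or within 10 kb of the first group there was 1 IgG peak and of the second there were 4, and 3 more reproducible regions inside the second had been removed for touching one. The part of untargeted cutting in these folds was not tested.

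The other regions of high background were scattered. Next to CWH43, a gene of lipid anchor remodelling, 3 regions (chr4:49101387-49104877) had backgrounds of 84.0 to 104 fragments and mean folds of 1.91 to 3.68, with 19 IgG peaks in or within 10 kb of them. Next to TARS3, a threonyl-tRNA synthetase, 3 regions (chr15:101756044-101760816) had mean folds of 2.74 to 3.55. The lowest mean fold of all 749, 1.74, was at chr18:107176-107550, next to LOC124905450, over a background of 155 fragments. At intermediate background, 5 regions next to CCT8L2, a chaperonin-like gene (chr22:16558347-16567366), had mean folds of 3.59 to 5.05 with backgrounds of 5.77 to 9.97 fragments and no IgG peak within 10 kb.

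**Figure D5:**
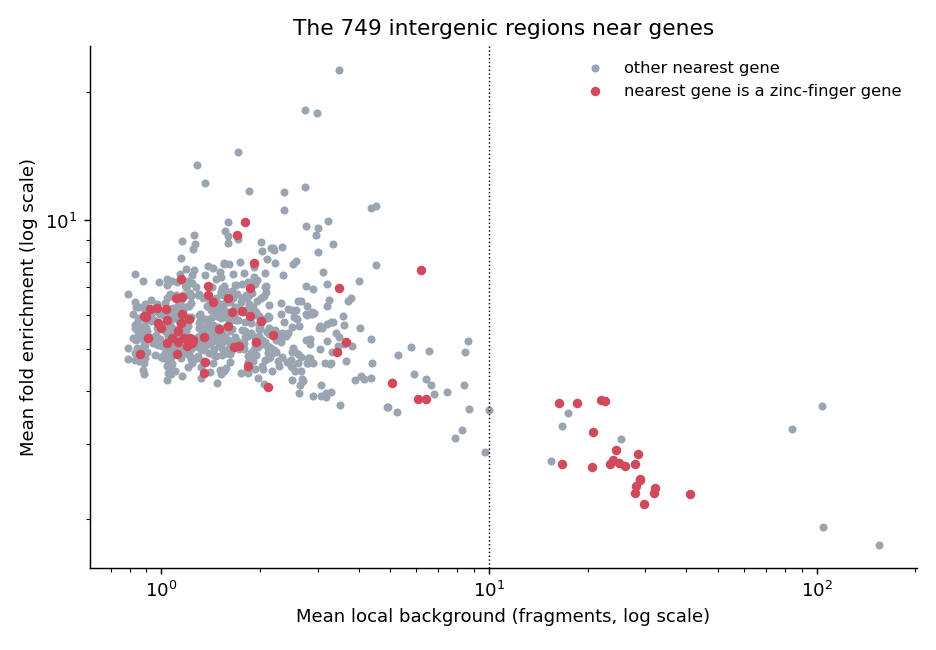
Mean fold enrichment against mean local background in fragments for the 749 regions, both axes on a log scale, with regions nearest to a zinc-finger gene in red and the limit of 10 fragments dotted. The 30 regions right of the limit have mean folds of at most 3.81, and 22 of them lie next to zinc-finger genes.

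Most regions stood alone. Of the 749, 656 had no other within 10 kb, and 93 formed 34 groups of 2 or more. Beside the groups above, INSIG1, which holds the sterol sensor SCAP in the endoplasmic reticulum, was the nearest gene of 4 regions. Of these, 3 lay within 7420 bp (chr7:155328532-155335951) downstream of the gene, with mean folds of 5.65 to 6.51. The other, 40.0 kb downstream (chr7:155350223-155350774), had 10.5, 10.3, 6.64 and 11.3 in replicates 1 to 4. The promoter of INSIG1 printed above carried a region in all 4 libraries with 4.96, 5.22, 5.23 and 6.48, lower in each library than the region 40.0 kb away. RPH3AL, a Rab effector of exocytosis, had 3 regions, of which the one at chr17:201543-201904 had 10.3, 12.3, 7.44 and 9.76.

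Regions also lay toward the ends of chromosomes. Within 3 Mb of the outermost gene of a chromosome, a measure chosen after the values were seen, were 113 of the 749, 15.1% (12.7% to 17.8%), and 5.27% of the eligible sequence. Of the regions seen in 1 library 12.6% lay there too, also above the share of sequence. Among the 12 of highest fold 5 lay there, next to PTPRN2, FLT4, PARD6G, UNCX and GAS6, and among the 50 of highest fold in all 4 libraries 12 did. The median fold of the 113 was 5.61 and that of the others 5.46, and 4 of the 113 had a high background.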

How the data were processed

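Peak lists of 4 MYT1L and 2 IgG CUT&RUN libraries were used, grouped by sample title. Inside the MYT1L files the peaks are numbered for a sample 1 above the title's; titles were followed. Per the submitters' processing notes MACS2 and hg38 were used; the aligner, control and threshold are not given in the sources used here. Each deposited peak has a fold (a ratio), a −log10 p, a −log10 q and a score, which is 10 times the −log10 q, truncated. The lowest deposited −log10 q was just above 2 in each list. Depth is known only through the pileups recovered from these values.

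Peaks sharing 1 bp were merged (Python 3.11.15, pandas 2.3.3, SciPy 1.17.1), and locations were taken from RefSeq GRCh38.p14 with strands for 15842 of 20037 protein-coding genes. A library's value in a region is that of its peak with the highest fold. Location classes were compared by medians of log2 values within each library, with an exact sign-flip test over libraries. Eligible sequence was counted between the first and last gene of each chromosome. Merging was checked against bedtools 2.31.1, and locations and pileups were tested on simulated data. The regions and gene lists were chosen with earlier results of these data known. Named regions were the 12 of highest fold in all 4 libraries, those next to listed genes, those of the 5 genes with most regions, 3 around the median, those at the distance limits, and the 5 densest groups. Single regions next to ZNF780A, ZNF716, CWH43, TARS3 and LOC124905450 were named after their values were seen, and 1 of the 12 is not reported here. The planned motif search in the regions needs a genome and was not run. Alternatives changed the peak threshold, libraries required, overlap, position, distance, IgG filter and libraries used.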

Additional observations from a re-analysis of the deposited data

How the results depend on the processing

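The means of all 6 differences in fold and width kept their sign in each of the 16 alternatives. Not every library did. At least 1 turned or showed no difference in 6 of the 16 for fold against far regions. The same held in 2 for width against gene ends and in 1 for width against regions inside genes. From far intergenic regions the fold differed by −0.21 to −0.03, from gene ends by −0.31 to −0.12 and from regions inside genes by −0.16 to −0.05 (log2). The widths differed by 0.15 to 0.58, −0.52 to −0.18 and −0.20 to −0.08. The tests cannot pass 0.05 with 4 libraries, so they say nothing of stability. No paired analysis was possible because MYT1L and IgG libraries were not tested against each other. The class comparisons are themselves paired, since each library gives its own difference.

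The number of regions, 749, was 279 under a stricter threshold (−log10 q ≥ 5), 255 with equal numbers of top peaks, 245 with all 4 libraries and 1816 with at least 2. It was 766 to 1576 over the fits without 1 library, in which leaving out a MYT1L library also lowered the rule from 3 of 4 to 2 of 3, here and in the ranges that follow. The share in all 4 libraries, 32.7%, was 29.0% with chained summits and 36.7% with IgG regions kept. The share whose nearest gene has a region at its own end, 40.1%, was 21.9% under the stricter threshold, 26.3% with equal numbers, 17.96% with all 4 libraries, 53.6% with at least 2 and 28.8% with chained summits. It was 39.4% to 51.5% without 1 library. Each of these rules also redrew the set of genes that have such a region. Against the gene set of the main rule, the share was 42.1% of regions in 3 libraries and 35.9% of those in all 4.

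The zinc-finger share, 10.4%, was 15.1% under the stricter threshold, 15.3% with equal numbers and 14.7% with all 4 libraries. With at least 2 libraries it was 7.05%, and without regions of high background 7.79%. The zinc-finger share was 7.17% to 10.6% without 1 library. The share toward chromosome ends, 15.1%, was 20.4% under the stricter threshold and 21.96% with equal numbers, and 12.7% to 15.7% without 1 library. These 2 shares and the background limit were chosen after the data were seen. Fewer or more regions follow from the rules themselves; for the shares the cause was not tested. Ranked by −log10 q, 10 of the 12 named regions stayed among the top 12.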
